A study of Mus musculus with 16 samples.

Results

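A set of 44 macrophage, monocyte and pan-leukocyte genes was followed in the mouse aorta. The genes were chosen by name, with earlier results of these data known, and all 44 were found among the 54532 genes of the deposited expression table. They were sorted by known role into pan-leukocyte genes, signalling adapters, Fc receptors, general macrophage genes, resident macrophage genes, foam-cell genes, monocyte and activated genes, and the growth factor Csf1. Of the 44, 39 had a mean of at least 0.5 FPKM (fragments scaled by transcript length and library depth) over the libraries and were tested. The other 5, Lyz1, Cd163, Timd4, Vsig4 and Marco, fell below that level and are given as levels.

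The libraries came from aortas of male Apoe-/- mice on strain C57BL/6j, aged 8 to 12 weeks, whose adventitia had been taken off. Apoe-/- mice lack apolipoprotein E, have high plasma cholesterol and form lipid-rich lesions, and here the deletion was carried by saline and Ang II animals alike. For 8 libraries the mice received saline. For the other 8 they received angiotensin II (Ang II), a peptide that raises blood pressure, at 1000 ng/kg/min. Both were given through an implanted osmotic pump for 7 days. The library names carry the letters WT, which the labels leave undefined. The labels do not tie each library to a separate mouse, so the p-values measure the spread between these 16 libraries. The comparison asks how far the myeloid transcripts of the aortic wall differed after a week of Ang II.

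Macrophages in an artery come from cells seeded in the wall before birth and from blood monocytes that enter it. Resident macrophages of vessel walls carry the scavenger and lectin receptors Mrc1, Folr2 and Cd163, newly entered monocytes carry Ly6C, Ccr2 and Plac8, and macrophages loaded with lipid in a lesion carry Trem2, Gpnmb and Lgals3. Their survival depends on the receptor Csf1r, whose ligand Csf1 is made by smooth muscle, endothelial and stromal cells. Several of the receptors here, Trem2, Clec4n and the activating Fc receptors among them, signal through the adapters Tyrobp and Fcer1g, whose ITAM motifs recruit the kinase Syk, and the factor PU.1, encoded by Spi1, switches on many of these genes.

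Ang II libraries held more of 8 members and less of 1. Adgre1 (F4/80, the classic mouse macrophage surface protein), Csf1r, Mpeg1, F13a1, Lgals3, Fcgr2b, Ms4a6c and Clec4n rose, by 1.99-fold (Ms4a6c) to 3.86-fold (Lgals3) on the log2(FPKM + 1) scale. Csf1 fell 1.64-fold. The remaining 30 tested members did not pass limma's test at an adjusted p of 0.05 over all genes. Among all 15007 genes tested 34.5% were called, 9.54% higher and 24.9% lower. The median log2 fold change of the 39 tested members was 0.99, with 38 positive and 1 negative, beside a median of -0.12 over all genes tested. Since the members were chosen with earlier results of these data known, that comparison is a description and not a test. After scaling by median ratios, which moved the median of all genes to -0.0031, the median of the members was 1.08 and 12 were called higher, beside 14.9% of all genes. A voom fit on reads recovered from the FPKM called 11 members higher, beside 9.66% of its genes.

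**Figure D1:**
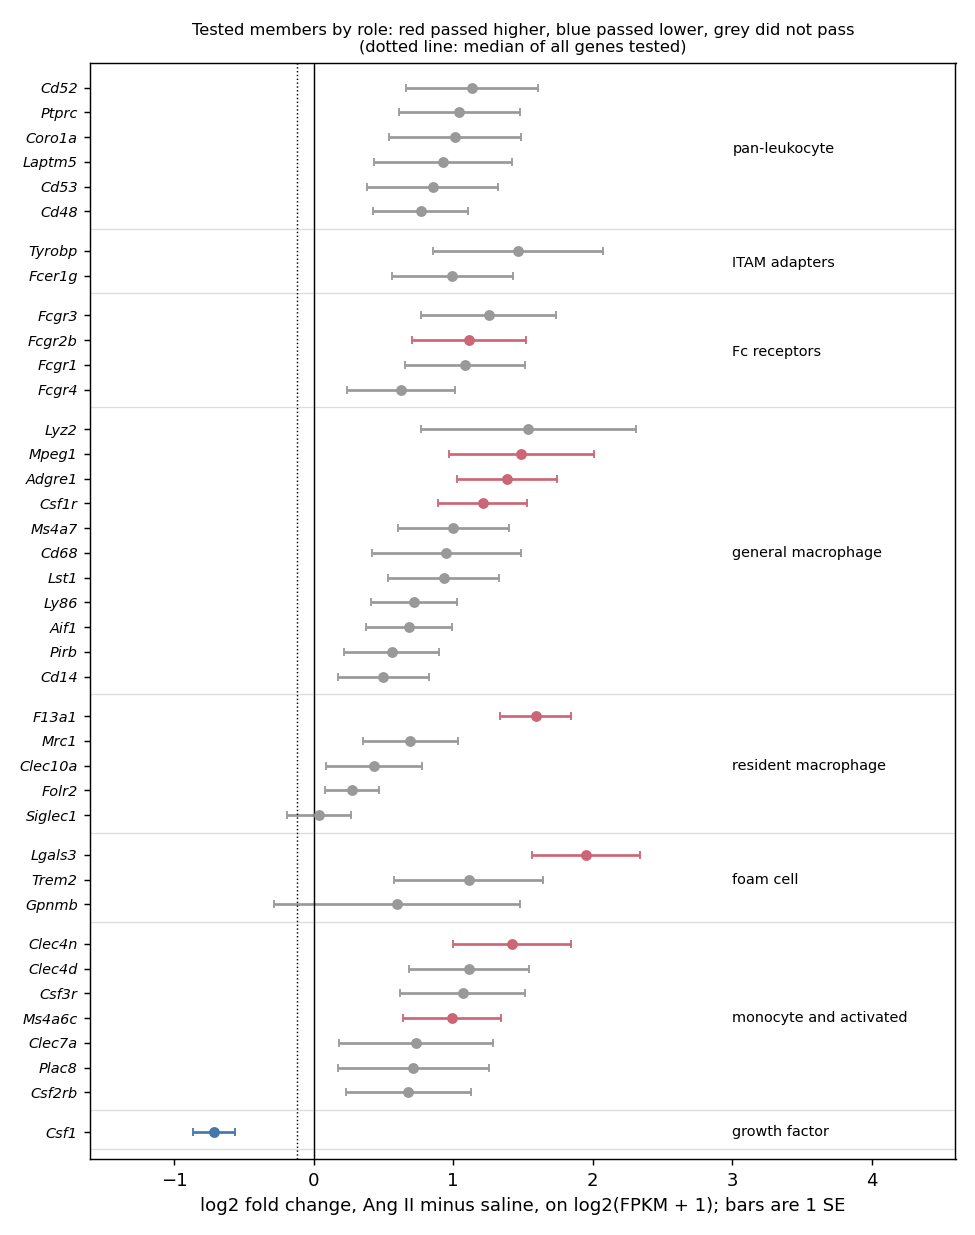
Log2 fold change of the 39 tested members, Ang II minus saline on log2(FPKM + 1), with 1 standard error, grouped by role. The 8 members in red and the 1 in blue passed the test, and every tested member other than Csf1 lies to the right of 0, from 0.04 for Siglec1 to 1.95 for Lgals3.

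Promoters of 4 members are shown for reference beside the levels given later. F13a1 and Lgals3 are the 2 members with the largest rise, Csf1 is the one that fell, and Fcgr4 holds the longer form of the PU.1 motif. Each run is the 250 bases before a RefSeq transcript start on GRCm38.p6, 5′ to 3′ on the strand of the gene, and capitals mark GAGGAA or GAGGAAGT on either strand. They lie at chr13:37050245-37050494 on the minus strand (F13a1), chr14:47373610-47373859 on the plus strand (Lgals3), chr3:107760470-107760719 on the minus strand (Csf1) and chr1:171018676-171018925 on the plus strand (Fcgr4).
F13a1: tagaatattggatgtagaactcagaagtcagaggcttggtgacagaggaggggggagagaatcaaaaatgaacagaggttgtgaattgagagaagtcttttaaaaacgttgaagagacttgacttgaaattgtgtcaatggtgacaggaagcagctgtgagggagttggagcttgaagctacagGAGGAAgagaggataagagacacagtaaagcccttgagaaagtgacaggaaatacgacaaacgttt
Lgals3: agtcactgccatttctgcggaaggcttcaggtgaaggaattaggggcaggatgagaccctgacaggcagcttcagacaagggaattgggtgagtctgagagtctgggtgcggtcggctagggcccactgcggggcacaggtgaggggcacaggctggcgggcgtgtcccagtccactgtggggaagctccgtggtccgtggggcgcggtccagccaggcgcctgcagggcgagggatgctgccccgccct
Csf1: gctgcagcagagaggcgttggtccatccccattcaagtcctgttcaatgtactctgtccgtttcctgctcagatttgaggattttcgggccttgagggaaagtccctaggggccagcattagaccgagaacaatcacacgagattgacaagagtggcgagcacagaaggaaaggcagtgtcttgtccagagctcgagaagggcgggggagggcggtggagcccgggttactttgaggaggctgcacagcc
Fcgr4: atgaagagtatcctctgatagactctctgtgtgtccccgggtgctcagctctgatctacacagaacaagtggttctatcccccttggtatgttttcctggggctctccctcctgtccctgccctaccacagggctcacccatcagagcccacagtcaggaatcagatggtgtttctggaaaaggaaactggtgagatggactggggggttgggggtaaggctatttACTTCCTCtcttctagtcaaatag
The windows of F13a1 and Fcgr4 each hold a match, and those of Lgals3 and Csf1 hold none. A second RefSeq start of F13a1, not printed, has no match in the 250 bases before it and GAGGAAGT 14 bases after it. Over the RefSeq window that also takes the 50 bases after the start, GAGGAA on either strand was present for 19 of the 34 members with an entry (55.9%) and for 31.3% of all 27025 genes. GAGGAAGT, which contains GAGGAA, was present for 4 of 34 (11.8%) and for 3.69% of all genes. A match is a description of letters, not a bound site.

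Library facts bear on all that follows. Depth ran from about 14606900 to 19988700 reads, so that 1 read in a transcript of 1 kilobase was worth 0.050 to 0.0685 FPKM. Saline 8 had the fewest genes above 0 (18592) and 632 genes with 1 read, where the other libraries had 1511 to 2260, and with Saline 2 and Saline 7 it lay apart on the first principal component. Apoe transcript was read at 14.7 to 110 FPKM in saline and 6.81 to 17.2 FPKM in Ang II libraries, and a gene-level value does not say which exons it came from. The aortic label was met by Myh11, the smooth muscle myosin, at 1295 to 2073 FPKM in saline and 634 to 1153 FPKM in Ang II libraries. In bulk aorta, fewer cells of a type and less RNA per cell cannot be told apart.

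Saline 1 and Ang II 1 carried much more of this gene set than the rest of their groups. Ang II 1 was the highest Ang II library for 37 of the 44 members, and for 24 of them it was at least 2-fold over the next. Over all genes tested it was the highest Ang II library for 13.3%. Saline 1 was the highest saline library for 24 of 44 and led by at least 2-fold for 9, where it was the highest for 9.73% of all genes tested. Saline 7 and Saline 8 stood at the other end, with 17.9 and 19.0 FPKM summed over the general macrophage genes, beside 500 FPKM in Saline 1. The members also scattered more within groups than other genes did: the median SD of log2(FPKM + 1) was 0.80 in saline and 0.98 in Ang II for the members, beside 0.37 and 0.24 for all genes tested.

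**Figure D2:**
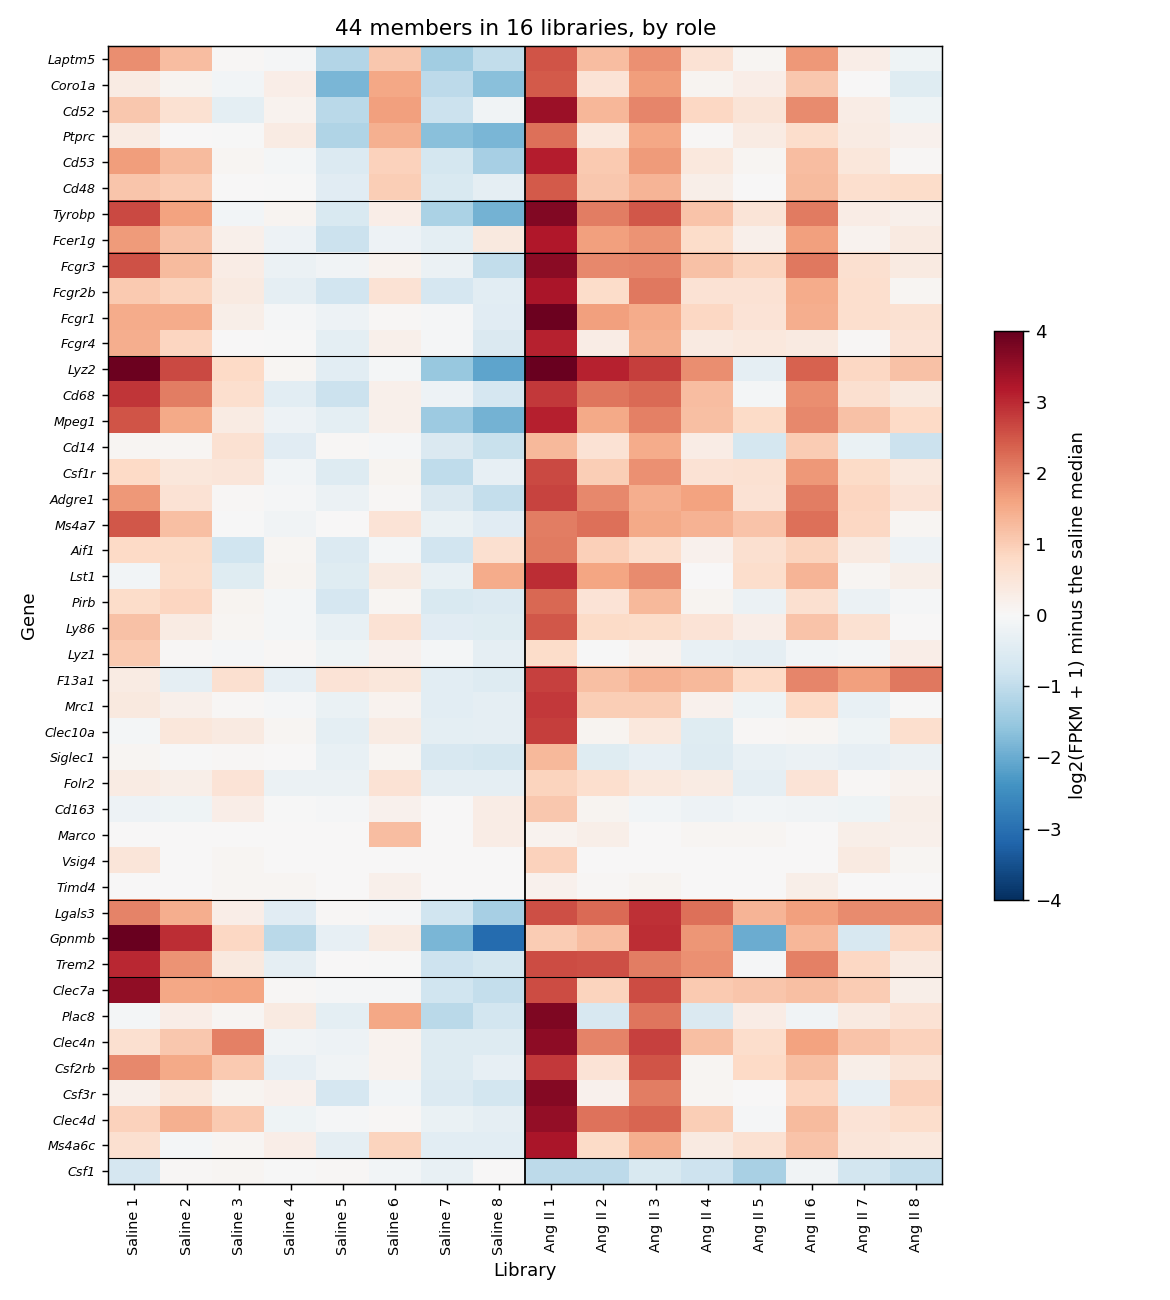
Each row is 1 of the 44 members, each column 1 of the 16 libraries, and color gives log2(FPKM + 1) minus the median of the 8 saline libraries, with the roles divided by lines. Ang II 1 is red in nearly every row, Saline 1 is darkest in the foam-cell and general macrophage rows, and Saline 7 and Saline 8 are blue in most rows.

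Leaving out these libraries moved the count of members called. Without Saline 1, 18 members were called higher, against 9.74% of all genes. Without Ang II 1 there were 6, against 8.55%, and without both (an alternative chosen after the values were seen) there were 15, against 8.78%. The count was 5 without Saline 5, Saline 7, Ang II 3 or Ang II 6, each left out alone, and 4 without Saline 7 and Saline 8 together. Shares of all genes were not taken for these last fits, so their counts stand without a background. Adgre1, Csf1r, F13a1 and Lgals3 were called higher, and Csf1 lower, under all 28 alternatives.

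Among the pan-leukocyte genes, none of 6 passed limma's test or the voom fit on recovered reads, 4 had an unadjusted p under 0.05, and the median log2 fold change was 0.97. After scaling by median ratios 1 of them, Ptprc, was called higher. Laptm5, a lysosomal membrane protein of blood cells, had the highest level of the group. It read 5.19, 15.3 and 58.4 FPKM (lowest, median and highest) in saline and 13.5, 30.4 and 92.4 FPKM in Ang II libraries, a log2 fold change of 0.93 (SE 0.49, limma adjusted p = 0.152). The groups overlapped, since Saline 1 exceeded every Ang II library except Ang II 1. Ptprc, the CD45 phosphatase found on every leukocyte, ran from 0.00 to 8.44 FPKM in saline and from 2.67 to 15.3 FPKM in Ang II libraries, and gave 1.04 (SE 0.44, limma adjusted p = 0.0718). Its highest saline library was Saline 6, more than 2-fold over the next saline value of 3.48 FPKM. The actin regulator Coro1a peaked among saline libraries in Saline 6 too, at 33.2 FPKM where the next was 13.7 FPKM. The membrane proteins Cd52, Cd53 and Cd48 had log2 fold changes of 0.77 to 1.14 and adjusted p of 0.0709 to 0.166.

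Saline 6 held transcripts of B cells. Summed over 8 B-cell markers it read 59.0 FPKM, where the saline median was 3.13 FPKM and the Ang II libraries ran from 0.403 to 4.36 FPKM. Cd79a, part of the B-cell receptor, read 16.5 FPKM there. Summed over 10 T-cell markers, Saline 6 was also the highest saline library, at 16.9 FPKM. Without Saline 6, Cd52, Coro1a and Ptprc were called higher beside the 8 members of the full comparison, which made 11. The share of all genes was not taken for that fit. Whether lymphoid cells set the pan-leukocyte values of Saline 6 was not tested.

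Of the ITAM adapters, Tyrobp (DAP12, the partner of Trem2 and many other receptors) read 1.28, 7.38 and 51.3 FPKM in saline and 8.65, 25.7 and 107 FPKM in Ang II libraries. All 8 Ang II libraries lay above the saline median, but only Ang II 1 exceeded all of the saline ones. Its log2 fold change was 1.46 (SE 0.61, limma adjusted p = 0.0704), and without Saline 1 it became 1.83 (adjusted p = 0.0174). Fcer1g, the gamma chain of Fc receptors, gave 0.99 (SE 0.43, adjusted p = 0.0820), with 3.78 to 26.9 FPKM in saline and 8.57 to 78.9 FPKM in Ang II libraries. Neither adapter passed in limma or the voom fit, and both had an unadjusted p under 0.05.

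Of the 4 Fc gamma receptors, 1 passed, while the voom fit called 3 (Fcgr1, Fcgr2b and Fcgr3) and the fit scaled by median ratios called 2. Among all genes these fits called 9.54%, 9.66% and 14.9% higher. Fcgr2b, the inhibitory receptor for IgG immune complexes, read 0.463, 1.55 and 4.10 FPKM in saline and 1.63, 3.06 and 22.8 FPKM in Ang II libraries. Every Ang II library was above the saline median, and 3 were above every saline library. The difference was 1.11 on the log2 scale (SE 0.41, limma adjusted p = 0.0420), and it did not pass without Saline 4, 5, 7 or 8 or Ang II 1, 3 or 6, each left out alone (adjusted p 0.0666 to 0.0840). Fcgr3, an activating receptor with the highest level of the 4, read 0.416, 1.83 and 15.4 FPKM in saline and 2.60, 7.55 and 33.7 FPKM in Ang II libraries. Saline 1 exceeded every Ang II library except Ang II 1, and the gene gave 1.26 (SE 0.48, adjusted p = 0.0524). Without Saline 1 it gave 1.57 (adjusted p = 0.00959). Of its 50-base stretches, 9.58% also occur in Fcgr2b, so that reads of the pair may be shared. The activating high-affinity receptor Fcgr1 and the mouse receptor Fcgr4 gave 1.09 and 0.62 (adjusted p = 0.0586 and 0.220), and both peaked in Ang II 1, at 19.9 and 11.6 FPKM.

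Downstream of the ITAM adapters, 5 of 15 signalling genes rose and none fell, beside 9.54% and 24.9% of all genes. The Src-family kinase Lyn gave a log2 fold change of 1.05 (SE 0.31, adjusted p = 0.0162) and the scaffold Lcp2 gave 0.82 (SE 0.26, adjusted p = 0.0238), both by limma. Lyn ran from 0.098 to 3.61 FPKM in saline and from 2.47 to 12.0 FPKM in Ang II libraries, with 3 Ang II libraries above every saline library. The exchange factor Vav1 and the kinase Syk also rose, though with calls that hung on single libraries. Vav1 was called under 16 of 28 alternatives and was lost without Saline 5, 7 or 8 or Ang II 1, 3 or 6, each left out alone. Syk was called under 13 of 28 and was lost without Saline 3, 4, 5, 7 or 8 or Ang II 1, 2, 3 or 6. Over the alternatives the adjusted p reached 0.138 for Vav1 and 0.146 for Syk. The median of the 15 was 0.72. After scaling by median ratios 6 were called higher, beside 14.9% of all genes.

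General macrophage genes had 12 members, of which 11 were tested and 3 rose, beside 9.54% of all genes. Adgre1 read 0.126, 1.17 and 6.18 FPKM in saline and 2.17, 5.29 and 13.2 FPKM in Ang II libraries. Saline 1 was well inside the Ang II range, and the next saline library, at 2.22 FPKM, was level with the 2 lowest Ang II libraries. The log2 fold change was 1.39 (SE 0.36, limma adjusted p = 0.00690), or 1.62 without Saline 1 and 1.21 without Ang II 1. Csf1r, the receptor through which Csf1 and Il34 keep macrophages alive, read 0.334, 1.72 and 3.70 FPKM in saline and 2.63, 3.98 and 15.9 FPKM in Ang II libraries. All 8 Ang II libraries were above the saline median and 4 above every saline library. Its difference was 1.21 (SE 0.32, limma adjusted p = 0.00808). A share of 15.1% of its exon bases overlaps Hmgxb3, and whether counting used strand is not given in the sources used here.

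Mpeg1, a pore-forming protein of phagosomes, read 0.124, 3.19 and 22.6 FPKM in saline and 6.03, 9.77 and 35.1 FPKM in Ang II libraries. Saline 1 and Saline 2, at 22.6 and 10.8 FPKM, lay among the Ang II values, and the other 6 saline libraries lay below all of them. The log2 fold change was 1.49 (SE 0.52, limma adjusted p = 0.0347). It did not pass without Saline 4, 5, 7 or 8 or Ang II 1, 3 or 6, each left out alone (adjusted p 0.0513 to 0.0713), and the adjusted p was 0.00565 without Saline 1.

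Lyz2, the lysozyme of myeloid cells, was the most abundant of the set. It read 5.21, 25.6 and 404 FPKM in saline and 19.9, 114 and 414 FPKM in Ang II libraries, so that Saline 1 nearly equalled the highest Ang II library. The log2 fold change of 1.54 had an SE of 0.77 (limma adjusted p = 0.130), and without Saline 1 it was 2.04 (adjusted p = 0.0278). Reads of Lyz2 may be shared with Lyz1, in which 15.4% of its 50-base stretches also occur; Lyz1 itself was at 1.63 FPKM or lower in every library. Cd68, a lysosomal glycoprotein, read 2.09, 4.61 and 39.7 FPKM in saline and 4.23, 15.5 and 38.5 FPKM in Ang II libraries, and no Ang II library exceeded Saline 1. It gave 0.95 (SE 0.54, adjusted p = 0.177), and 1.30 without Saline 1 (adjusted p = 0.0427).

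The other general macrophage genes that were tested, Cd14 (a co-receptor for endotoxin), Aif1 (an actin-binding protein), Ly86 (the MD-1 partner of RP105), Lst1, Pirb (an inhibitory receptor) and Ms4a7, had log2 fold changes of 0.50 to 1.00 and adjusted p of 0.0584 to 0.245. Ms4a7 was the closest, at 1.00 (SE 0.40), with 0.255 to 8.66 FPKM in saline and 0.826 to 6.90 FPKM in Ang II libraries. Without Saline 1 its adjusted p was 0.00569. Lst1 differed in pattern, since its highest saline value of 4.53 FPKM was in Saline 8. Of the 50-base stretches of Pirb, 34% occur in other genes.

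**Figure D3:**
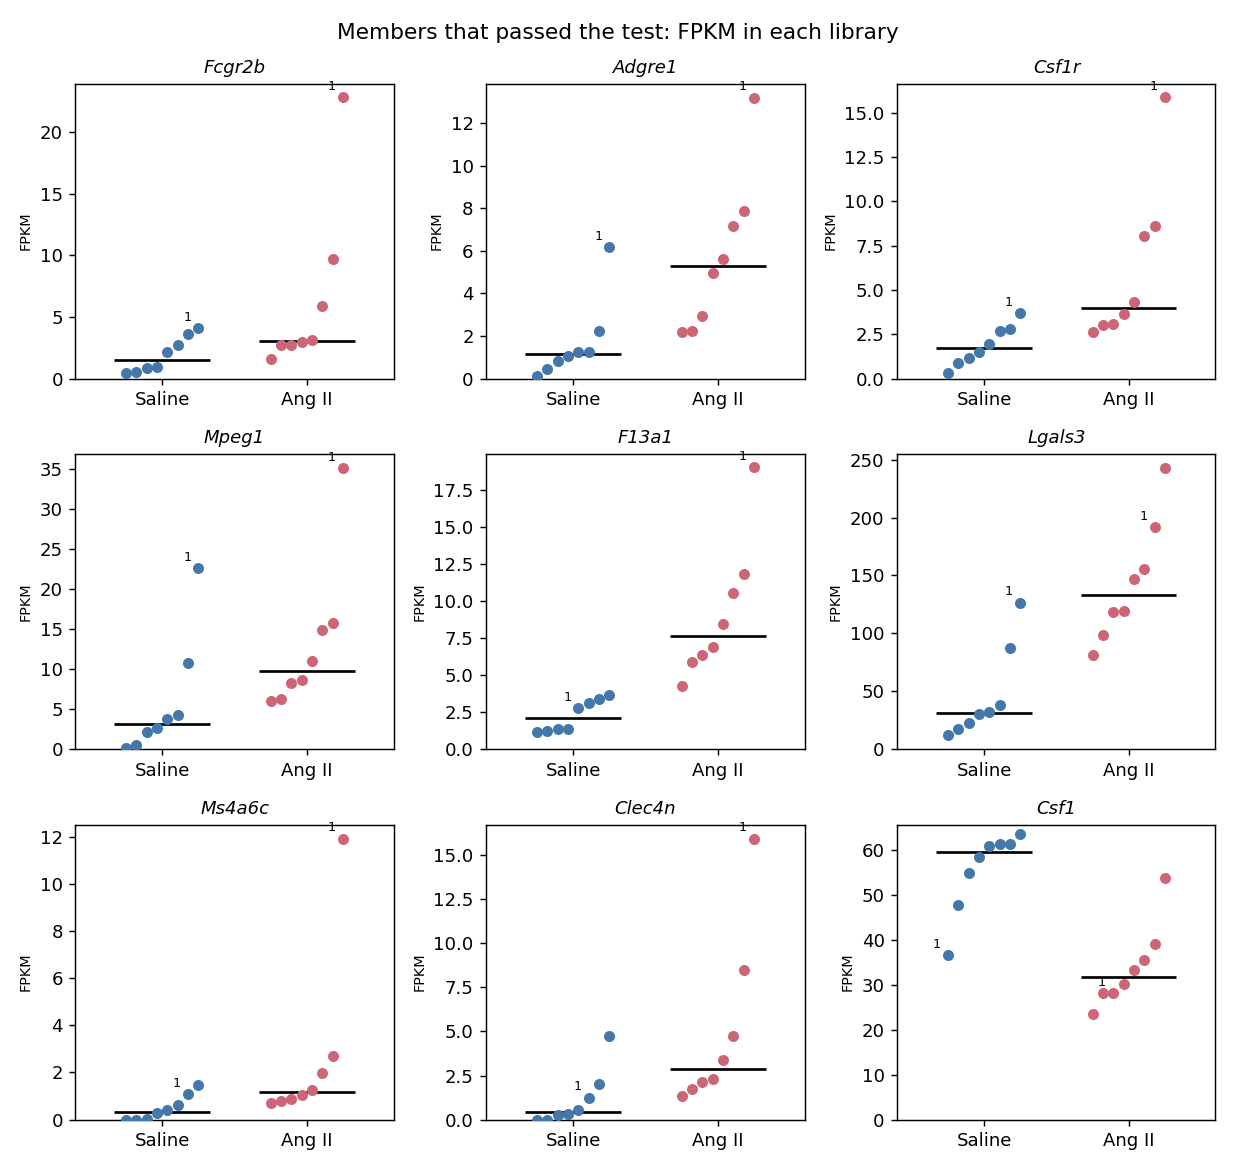
FPKM of the 9 members that passed the test, with 1 point for each of the 8 saline and 8 Ang II libraries, the median as a bar and replicate 1 of each group marked. F13a1 is the panel without overlap of the groups, at 3.65 FPKM or lower in saline and 4.26 FPKM or higher in Ang II libraries, and Csf1 is the panel with lower Ang II values.

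Among the resident macrophage genes, 1 of 5 tested rose, beside 9.54% of all genes, and 4 of the 9 were below the level for testing. F13a1 encodes the A subunit of coagulation factor XIII, a transglutaminase that cross-links fibrin and is made by macrophages, monocytes and platelets. It lies at chromosome 13, 36867178 to 37050244 on GRCm38 and read 1.13, 2.09 and 3.65 FPKM in saline and 4.26, 7.67 and 19.1 FPKM in Ang II libraries. All 8 Ang II libraries stood above every saline library, which held for no other member and for 2.74% of all genes tested. The log2 fold change was 1.59 (SE 0.26, limma adjusted p = 0.000189), and over the 28 alternatives it ran from 1.25 to 2.00 with adjusted p of 8.56e-05 to 0.00207. Without Ang II 1 it was 1.43, and without Saline 1 it was 1.63.

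The other 4 resident genes tested did not pass. Mrc1, the mannose receptor CD206, read 0.0334, 0.379 and 0.824 FPKM in saline and 0.121, 0.961 and 8.82 FPKM in Ang II libraries, and 4 Ang II libraries had more than any saline library. Its log2 fold change was 0.69 (SE 0.34, limma adjusted p = 0.125). The lectin Clec10a and the sialic acid receptor Siglec1 were at 8.46 and 3.05 FPKM in Ang II 1, where the next Ang II libraries had 1.23 and 0.383 FPKM. Siglec1 gave 0.04 (SE 0.23, adjusted p = 0.913); its Ang II median of 0.314 FPKM was below its saline median of 0.635 FPKM, and 1 Ang II library, Ang II 1, exceeded that median. Folr2, a folate receptor, gave 0.27 (SE 0.19, adjusted p = 0.280) from 112 reads in all, and 63.1% of its exon bases overlap Gm10602.

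Cd163, the hemoglobin scavenger receptor, stayed at 1.57 FPKM or lower in every library. Timd4, a phosphatidylserine receptor of long-lived resident macrophages, had 25 reads over the 16 libraries and was at 0 in 9 of them. The complement receptor Vsig4 had 26 reads and the scavenger receptor Marco 44 reads. The highest value of Marco was 1.34 FPKM in Saline 6. With no filter on low values, these 4 genes had adjusted p of 0.619 to 0.856.

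In a second list of 12 genes linked to resident macrophages, 8 were tested, 2 rose and 2 fell. Among all genes 9.54% rose and 24.9% fell, so the share lower was close to that of all genes. Igf1, an insulin-like growth factor, ran from 1.06 to 6.85 FPKM in saline and from 8.75 to 20.8 FPKM in Ang II libraries, with no overlap and a log2 fold change of 1.65 (SE 0.28, limma adjusted p = 0.000270). Lyve1, a hyaluronan receptor, gave 0.66 (SE 0.16, adjusted p = 0.00416). Gas6, a ligand of the Axl and Mer receptors, fell by 1.10 (SE 0.15, adjusted p = 4.20e-05), from a median of 247 FPKM to 113 FPKM. Cbr2, a carbonyl reductase, also fell, from a median of 651 FPKM in saline to 438 FPKM in Ang II libraries. Which cells held Cbr2 was not tested. Stromal and muscle cells also express Igf1 and Gas6, and lymphatic endothelium expresses Lyve1.

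Of the 3 foam-cell genes, 1 rose, beside 9.54% of all genes. Lgals3 (galectin-3, a galactoside-binding lectin of lipid-loaded macrophages that activated smooth muscle also makes) lies at chromosome 14, 47367751 to 47386160. It read 11.8, 31.3 and 126 FPKM in saline and 81.3, 133 and 243 FPKM in Ang II libraries. Saline 1 and Saline 2, at 126 and 87.4 FPKM, were the saline libraries within the Ang II range, and the other 6 were below it. The log2 fold change of 1.95 (SE 0.39, limma adjusted p = 0.00113) was the largest of the set and held without Saline 1 (2.21), without Ang II 1 (1.88) and without Saline 7 and Saline 8 (1.55). Its highest Ang II library was Ang II 3, not Ang II 1.

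Gpnmb, a glycoprotein of lipid-laden macrophages, had the largest standard error of the tested members. It read 0.299, 10.3 and 168 FPKM in saline and 1.79, 23.2 and 84.9 FPKM in Ang II libraries. Saline 1, at 168 FPKM, exceeded every Ang II library, and Saline 2, at 85.0 FPKM, was level with the highest of them. It gave 0.60 on the log2 scale (SE 0.88, limma adjusted p = 0.623), 1.13 without Saline 1 and -0.29 without Saline 7 and Saline 8. Trem2, the lipid-sensing receptor that signals through Tyrobp, read 0.334, 1.35 and 18 FPKM in saline and 1.29, 7.95 and 13.5 FPKM in Ang II libraries, and Saline 1 again exceeded all. It gave 1.11 (SE 0.53, adjusted p = 0.114), or 1.48 without Saline 1 (adjusted p = 0.0179).

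Of 16 further genes of lipid-loaded and lysosome-rich macrophages, all tested, 1 rose and none fell, beside 9.54% and 24.9% of all genes. Their median log2 fold change was 0.25. The scavenger receptor Msr1 ran from 0.107 to 3.25 FPKM in saline and from 0.888 to 11.1 FPKM in Ang II libraries, a log2 fold change of 1.16 (SE 0.38, limma adjusted p = 0.0271). That call held under 21 of 28 alternatives and was lost without Saline 7, Ang II 1 or Ang II 3, each left out alone, and without Saline 7 and Saline 8 together (adjusted p = 0.0901). Itgax and Olr1 came next, with adjusted p of 0.0985 and 0.127. Saline 1 was also highest for the elastase Mmp12, at 40.5 FPKM, and the proton pump subunit Atp6v0d2, at 20.1 FPKM, both chosen after their values were seen; Ang II 1 had 4.16 and 3.57 FPKM of them.

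The 7 monocyte and activated genes had a median log2 fold change of 0.99, and 2 rose, beside 9.54% of all genes. Clec4n (Dectin-2, a receptor for fungal mannans) read 0.00, 0.438 and 4.75 FPKM in saline and 1.34, 2.85 and 15.9 FPKM in Ang II libraries. Saline 3, at 4.75 FPKM, and the next saline library, at 2.04 FPKM, overlapped the Ang II group. It gave 1.42 (SE 0.42, limma adjusted p = 0.0154) and missed the threshold without Saline 7 and Saline 8 (adjusted p = 0.0553). Ms4a6c, a tetraspan protein of monocytes, read 0.00, 0.345 and 1.48 FPKM in saline and 0.721, 1.17 and 11.9 FPKM in Ang II libraries, a log2 fold change of 0.99 (SE 0.35, limma adjusted p = 0.0365). All 8 Ang II libraries were above the saline median, 7 of them within 0.721 to 2.68 FPKM. The call was lost without Saline 2, 5, 7 or 8 or Ang II 3 or 6, each left out alone (adjusted p 0.0558 to 0.0668). An overlap with BE692007 takes in 53.1% of its exon bases.

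Clec7a (Dectin-1, the beta-glucan receptor) and Csf2rb (the shared receptor chain for Csf2 and Il3) were highest among saline libraries in Saline 1. Clec7a read 0.00, 0.954 and 21.7 FPKM in saline and 1.29, 3.15 and 11 FPKM in Ang II libraries, and Saline 1 exceeded all 8 Ang II libraries. Plac8, a small protein of Ly6C-high monocytes, had a different shape, with 26.5 FPKM in Ang II 1 and 8.13 FPKM in Ang II 3 but 0.997 FPKM in Saline 1. Csf3r, the receptor for the neutrophil growth factor, read 20.1 FPKM in Ang II 1, 5.87 FPKM in Ang II 3 and at most 1.29 FPKM in saline. The lectin Clec4d read 13.7 FPKM in Ang II 1 and at most 2.40 FPKM in saline. These 5 did not pass, with log2 fold changes of 0.68 to 1.11 and adjusted p of 0.0546 to 0.315.

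Monocyte genes outside the set gave 4 that rose and 1 that fell of 14 tested, beside 9.54% and 24.9% of all genes. Cx3cr1, the fractalkine receptor of patrolling monocytes and macrophages, ran from 0.0818 to 0.687 FPKM in saline and from 0.873 to 3.45 FPKM in Ang II libraries without overlap, a log2 fold change of 0.93 (SE 0.17, limma adjusted p = 0.000590). Chil3 and Ccr2, markers of Ly6C-high monocytes, gave 1.46 (SE 0.44, adjusted p = 0.0170) and 1.18 (SE 0.40, adjusted p = 0.0294). Ang II 1 read 20.5 FPKM of Chil3 and 17.1 FPKM of Ccr2, whereas Saline 1 read 0.00 and 0.0976 FPKM. Ly6c2, which encodes Ly6C itself, was among the 9 that did not pass. It read 3.74 FPKM in Ang II 1 and 0.0913 to 1.18 FPKM in the other Ang II libraries, beside 0.00 to 0.860 FPKM in saline. Ccr2 did not pass without Ang II 3. The integrin Itgam was the fourth that rose (adjusted p = 0.0483), a call kept under 9 of 28 alternatives and lost in the voom fit (adjusted p = 0.0541), without any 1 saline library and without Ang II 1, 2, 3 or 6, each alone. Nr4a1, a nuclear receptor also induced in muscle and endothelium, fell, with the call kept under 11 of 28 alternatives. It was lost after scaling by median ratios and without Saline 1, 2, 7 or 8 or Ang II 2, 6, 7 or 8, each left out alone, with adjusted p up to 0.271.

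Summed by role, Saline 1, Ang II 1 and Ang II 3 differed in which genes they held. Saline 1 held 313 FPKM of foam-cell genes with 33.1 FPKM of monocyte and activated genes and 5.72 FPKM of resident genes. Ang II 1 held 227, 111 and 43.4 FPKM of the same 3 groups, and Ang II 3 held 337, 50.7 and 10.7 FPKM. In saline the foam-cell sum ran from 12.6 to 313 FPKM with a median of 43.0 FPKM, and in Ang II from 84.4 to 337 FPKM with a median of 165 FPKM. The resident sum ran from 1.64 to 7.88 FPKM in saline and from 5.45 to 43.4 FPKM in Ang II libraries. F13a1 gave 8.44 of 9.94 FPKM in Ang II 7, 11.9 of 14.9 FPKM in Ang II 8 and 19.1 of 43.4 FPKM in Ang II 1. Of the other resident genes, Siglec1 and Cd163 had lower medians in Ang II than in saline, and Mrc1, Folr2 and Clec10a had higher ones. These sums are led by the most abundant gene of each group, which can differ between libraries. Saline 1 was the only library with more Gpnmb (168 FPKM) than Lgals3 (126 FPKM). In Ang II 1, Lgals3 gave 192 FPKM of the foam-cell sum and Gpnmb 21.5 FPKM.

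**Figure D4:**
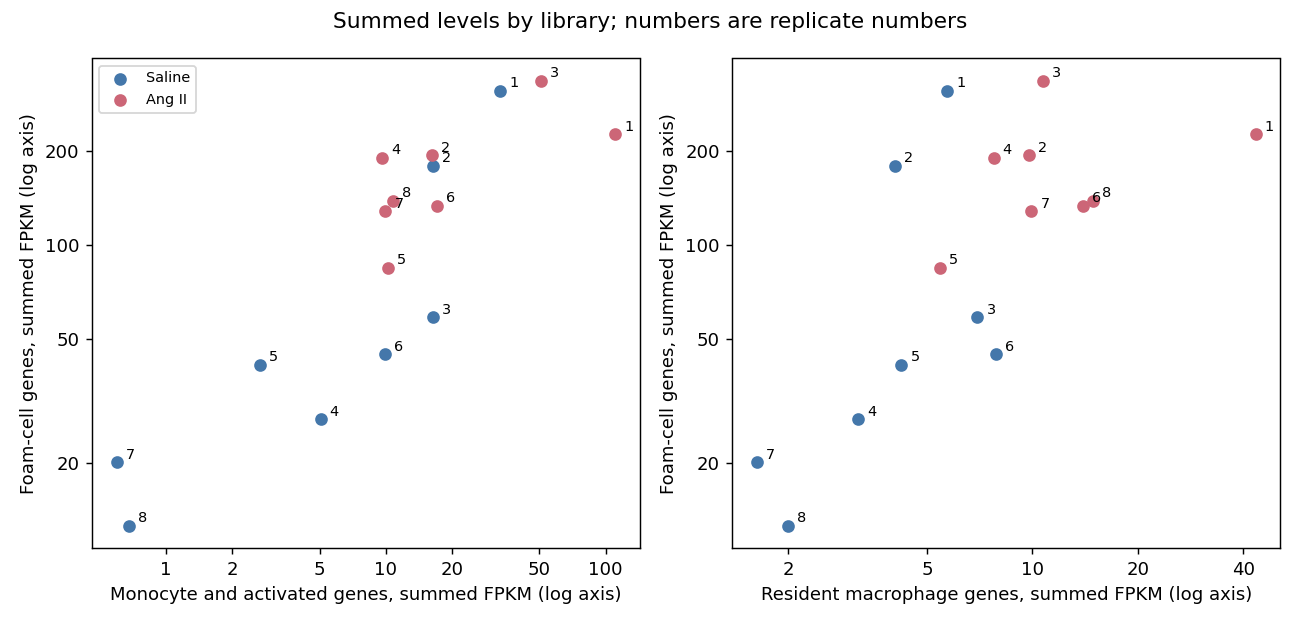
Summed FPKM of the 3 foam-cell genes (vertical log axis) against the 7 monocyte and activated genes (left) and the 9 resident macrophage genes (right), 1 point per library with its replicate number. Saline 1 and Saline 2 reach the foam-cell sums of the Ang II libraries, at 313 and 180 FPKM, with resident sums of 5.72 and 4.05 FPKM. F13a1 is the most abundant resident gene in every library.

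Csf1, the ligand that keeps macrophages alive, was the one member called lower. The gene lies at chromosome 3, 107741048 to 107760469, and read 36.7, 59.6 and 63.6 FPKM in saline and 23.5, 31.7 and 53.7 FPKM in Ang II libraries. Saline 1 was the lowest saline library at 36.7 FPKM, and Ang II 6 the highest Ang II library. No member had every Ang II library below every saline library, which 5.62% of all genes tested did. The mean was 55.6 ± 9.15 FPKM in saline and 33.9 ± 9.34 FPKM in Ang II libraries (SD, n = 8 each). Csf1 fell by 0.72 on the log2 scale (SE 0.15, limma adjusted p = 0.00176), and over the alternatives by 0.55 to 0.82. Of 8 other growth factors and receptors of myeloid cells, 5 were tested and 2 fell, beside 24.9% of all genes called lower. Flt3l, the ligand that sustains dendritic cells, fell by 1.12 (SE 0.23, adjusted p = 0.00139), and Kitl, the stem cell factor, fell by 0.91 (SE 0.30, adjusted p = 0.0282), a call lost after scaling by median ratios and without Saline 1, 5 or 6 or Ang II 2, each left out alone (adjusted p up to 0.113 over the alternatives). Il34, the other ligand of Csf1r, gave -0.28 (SE 0.18, adjusted p = 0.225).

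Transcription factors of the myeloid lineage went in both directions, with 2 of 11 tested higher and 2 lower, beside 9.54% and 24.9% of all genes. Spi1, which encodes PU.1, read 0.374, 3.03 and 7.68 FPKM in saline and 3.69, 8.54 and 30.1 FPKM in Ang II libraries. In 4 Ang II libraries Spi1 exceeded every saline value, and the log2 fold change was 1.38 (SE 0.41, limma adjusted p = 0.0159). Runx1, a blood lineage factor, rose by 0.94 (SE 0.23, adjusted p = 0.00556). Mitf, a factor for lysosomal genes that non-myeloid cells use too, fell by 0.50 (SE 0.10, adjusted p = 0.000868). Maf, linked to resident macrophages, fell by 0.86 (SE 0.23, adjusted p = 0.00805). Its saline median was 11.3 FPKM, beside 1.72 FPKM for Csf1r, and which cells held Maf was not tested.

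Markers of other cells moved with some libraries. For neutrophils, 2 of 12 markers were tested and 1 passed, beside 9.54% of all genes called higher. S100a9, a calcium-binding protein of neutrophils and monocytes, gave 2.23 (SE 0.57, limma adjusted p = 0.00639), and S100a8 gave 1.54 (adjusted p = 0.0703). Their sum with the other 10 was 116 FPKM in Ang II 1, where the Ang II median was 7.14 FPKM and the saline range 0.0277 to 11 FPKM. Ly6g, which defines mouse neutrophils, was at most 0.269 FPKM in any library, and Stfa2 was at 0 in all 16. No marker of T cells (3 of 10 tested), B cells (5 of 8), NK cells (2 of 6), dendritic cells (3 of 8), mast cells (2 of 7), red cells (5 of 5) or platelets (5 of 5) passed limma's test. Of these 25 genes, 2 had an unadjusted p under 0.05 (Trac and Kit) and 1 was called by the voom fit (Trac). Single markers of other cells also peaked in Ang II 1, among them the following, chosen after their values were seen. The mast cell proteases Cma1 and Tpsb2 read 3.87 and 3.52 FPKM there, where the next Ang II libraries had 0.402 and 0.251 FPKM. Dpt, a matrix protein of fibroblasts, read 23.7 FPKM, where the next had 4.23 FPKM. Pf4, a chemokine of platelets and some macrophages, read 147 FPKM, where the next had 32.2 FPKM. Their part in the peaks of the members in that library was not tested. The summed T-cell markers ran from 0.975 to 16.9 FPKM in saline and from 2.86 to 7.51 FPKM in Ang II libraries.

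Genes of wall cells and fat were read in the same way, beside the 24.9% of all genes called lower. Of 10 smooth muscle genes 5 fell, of 10 endothelial genes 2 fell, of 9 adventitial fibroblast genes tested 2 fell and of 9 adipocyte genes tested 3 fell, and none rose. After scaling by median ratios the same counts were 5, 1, 2 and 2, and again none rose. The 24.9% belongs to the unscaled fit, and the share of all genes lower after scaling was not taken. In the unscaled fit the endothelial, fibroblast and adipocyte shares lie near that of all genes. The endothelial call of Pecam1 was lost without Saline 1, 3, 4 or 5 or Ang II 1, 3 or 6, each left out alone (adjusted p up to 0.109 over the alternatives), and the adipocyte call of Lipe without Saline 2 or Ang II 4 (up to 0.165). The summed smooth muscle genes ran from 9688 to 16226 FPKM in saline and from 6958 to 11541 FPKM in Ang II libraries, and the summed adventitial fibroblast genes from 89.5 to 237 FPKM and from 95.8 to 228 FPKM. The summed adipocyte genes ran from 104 to 484 FPKM in saline and from 52.6 to 188 FPKM in Ang II libraries. FPKM are shares of a library, and the part of the muscle genes in the rise of the members was not tested.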

How the data were processed

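Expression was measured by mRNA sequencing of aorta in 16 libraries, 8 with saline and 8 with Ang II. The authors deposited FPKM values for 54532 genes, already scaled for transcript length and library depth. Per the submitters' processing notes, reads were placed on GRCm38 (mm10). Aligner, counting tool and strand use: not given in the sources used here. Groups and replicate numbers came from the sample titles. All columns of per-sample values were used.

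Values were compared on the log2(FPKM + 1) scale with limma 3.58.1 (R 4.3.3), letting the prior variance follow intensity. The scale understates fold changes of low genes. The test covered 15007 genes with a mean of at least 0.5 FPKM and was two-sided, with Benjamini-Hochberg adjustment over all of them, a threshold of 0.05 and no covariate. Fold changes and standard errors printed without another setting come from that fit. The fit was tested on simulated data. Reads were recovered from FPKM with mean GENCODE M21 transcript lengths, and 95.8% to 96.3% of nonzero values then lay within 0.02 of a whole read. All 44 members came out whole in every library. For 3 of them, Csf1r, Cd14 and Mpeg1, this took a length other than the annotated mean, the nearest that gave whole reads. Exon overlap and shared 50-base stretches were counted on GENCODE M21.

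The members, their roles and the other gene lists were chosen with earlier results of these data known. Every member that passed and the most abundant of each role were given in full, and of each other list up to 3 genes by smallest adjusted p were eligible for naming. Alternatives changed the pseudocount, the filter, the scaling, the test, the sample weights or the libraries. Of the 56 pairs of libraries within groups, none matched within sampling noise.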

Additional observations from a re-analysis of the deposited data

Results flagged for a closer look

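Of 78 sets of 8 values (39 tested members in 2 groups), 7 had 1 library far from the next by Dixon's test on log2(FPKM + 1), and in all 7 it was Ang II 1 at the top. Chance alone flags about 1 in 20 such sets, and genes of 1 library are not independent. Among the Fc receptors, Fcgr1 read 19.9 FPKM with the next Ang II library at 3.22 FPKM, and Fcgr4 read 11.6 FPKM with the next at 3.00 FPKM. Among the general macrophage genes, Ly86 read 8.50 FPKM where the next had 2.74 FPKM. Resident macrophage genes gave 3 of the 7, with Mrc1 at 8.82 FPKM over 1.71 FPKM, Siglec1 at 3.05 FPKM over 0.383 FPKM and Clec10a at 8.46 FPKM over 1.23 FPKM. The monocyte gene Ms4a6c read 11.9 FPKM over 2.68 FPKM. Of these 7 members, Ms4a6c was the one that passed the test, and without Ang II 1 it still passed (limma adjusted p = 0.0314, log2 fold change 0.68).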

How the results depend on the processing

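The count of members called higher was 8, and 1 was called lower under every alternative. It became 13 with a pseudocount of 0.1, 5 without a filter on low values, 13 after quantile normalization and 5 by the Wilcoxon rank-sum test. It was 4 without Saline 7 and Saline 8, 5 without Saline 2, Saline 7 and Saline 8, and 15 without Saline 1 and Ang II 1, the last chosen after seeing the data. Leaving out 1 library at a time gave 5 to 18. With the replicate number as a block it was 28, beside 9.42% of all genes, but the numbers share no stated source, same-numbered libraries deviated together with correlations of -0.25 to 0.39, and 2 of 8 correlated best with their own number, so the pairing stands only as a hint. Scaling by median ratios gave 12, and sample weights and a filter at 1 FPKM gave 9 each. Settings printed without a share of all genes have no background for their counts here. Where printed, the share of all genes called higher ran from 8.55% without Ang II 1 to 14.9% after scaling by median ratios. Of the fold changes of single members, Siglec1 turned to -0.23 with sample weights, to -0.03 without Saline 7, to -0.04 without Saline 8 (from -0.039 to 0.088 over the fits with 1 library left out), to -0.13 without Saline 7 and Saline 8 and to -0.13 without Saline 2, Saline 7 and Saline 8. Gpnmb turned to -0.29 without Saline 7 and Saline 8. In 36 of the 39 tested members the fold change was positive under every alternative that gave one, but Folr2 was above the filter in 21 of 28 and Clec10a in 25, and neither without Ang II 1. The cause of these shifts was not tested. Depth limits Timd4, Vsig4 and Marco, each read at under 50 counts in all.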
